A study of Mus musculus with 6 samples.

Results

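The peaks described here are those that 5 deposited ChIP-seq peak lists place around the genes Tgif1 and Tgif2 themselves. ChIP-seq recovers the DNA bound by a protein and counts sequenced fragments, called tags, where they pile up into a peak. A peak belonged to a locus when it overlapped a 55 kb window of the mm9 build, chr17:71170000-71225000 for Tgif1 or chr2:156645000-156700000 for Tgif2. The rule used position only. It took 35 of the 70533 peaks of the 5 lists, 27 at Tgif1 and 8 at Tgif2. Of these, 6 came from the Tgif1 list, 6 from Tgif2, 12 from Hdac1, 8 from Nanog and 3 from Smad3.

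The study mapped 5 proteins in J1 mouse embryonic stem cells that contain BirA, an enzyme that attaches biotin to a tagged protein. The cells were unperturbed and grown with serum and leukemia inhibitory factor, and all libraries share this background. Antibodies were used for Tgif1, Hdac1 and Smad3, per the labels, and streptavidin beads, which catch biotin, for Tgif2 and Nanog. Each factor had 1 library, so nothing below has a replicate check, and no test between factors or loci was possible. The labels do not give the level of the biotin-tagged proteins relative to the cells' own. Whether the Tgif1 antibody also recognises Tgif2 was not tested. The mock library was not analysed here, so no background from control cells stands beside the values.

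Tgif1 and Tgif2 are paralogous homeodomain proteins of the TALE class. They bind DNA and Smad proteins and recruit corepressors, among them histone deacetylases such as Hdac1, and so limit the transcription that TGF-beta, Activin and Nodal signals call up through Smad2 and Smad3. Nanog is a homeodomain factor of the network that keeps embryonic stem cells pluripotent. A factor found at its own gene, or at that of its paralog, is what auto-regulation or cross-regulation would need, but a peak alone shows occupancy and not a change in expression.

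The annotated promoters of the 2 genes are shown as sequences through which such regulation could act, though it need not act there. They come from RefSeq on the GRCm38.p6 build, which differs from the mm9 build of the peaks, so no peak was laid on them. RefSeq lists 5 starts for Tgif1, spread over 6755 bp, and 1 for Tgif2. Each window runs from 250 bases before to 50 after the start. Capitals mark TGTCA or its reverse complement TGACA, the core that TGIF homeodomains bind, searched on both strands. The Tgif1 windows shown are the pair with the most matches, and the Tgif2 window is its only one. They lie at chr17:70851685-70851984 and chr17:70846728-70847027 on the minus strand, and at chr2:156839757-156840056 on the plus strand, in GRCm38.p6.
Tgif1 start 2: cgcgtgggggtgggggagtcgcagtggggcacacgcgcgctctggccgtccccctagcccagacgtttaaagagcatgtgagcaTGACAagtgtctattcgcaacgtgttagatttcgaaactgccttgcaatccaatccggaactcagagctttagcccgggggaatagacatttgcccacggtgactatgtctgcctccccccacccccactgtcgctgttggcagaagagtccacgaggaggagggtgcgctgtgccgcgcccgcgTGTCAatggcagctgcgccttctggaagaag
Tgif1 start 5: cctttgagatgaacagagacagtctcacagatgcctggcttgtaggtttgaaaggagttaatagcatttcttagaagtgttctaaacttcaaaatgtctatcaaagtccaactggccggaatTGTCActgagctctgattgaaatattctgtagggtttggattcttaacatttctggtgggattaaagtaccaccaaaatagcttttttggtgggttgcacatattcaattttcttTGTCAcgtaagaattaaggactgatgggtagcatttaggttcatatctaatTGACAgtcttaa
Tgif2 start 1: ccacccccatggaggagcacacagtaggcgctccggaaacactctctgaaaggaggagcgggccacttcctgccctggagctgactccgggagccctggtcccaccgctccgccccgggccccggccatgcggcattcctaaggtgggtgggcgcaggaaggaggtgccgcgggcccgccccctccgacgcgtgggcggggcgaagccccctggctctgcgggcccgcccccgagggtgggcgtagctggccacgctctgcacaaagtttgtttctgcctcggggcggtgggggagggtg

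In order from the most upstream start, the Tgif1 windows held 1, 2, 1, 0 and 3 matches to TGTCA, and the Tgif2 window held 0. At least 1 match was present in 45.4% of the 32851 RefSeq promoter windows of this length, at least 2 in 14.8% and at least 3 in 3.71%. These shares are per single window, whereas the 3 matches are the highest of 5 Tgif1 windows. The letters CAGAC or GTCTG, an element that Smad3 and Smad4 bind, occurred 1, 2, 0, 1 and 0 times in the Tgif1 windows and 0 times at Tgif2, against at least 1 in 49.6% of all windows. The 2 motifs shared no letters in these sequences. The Tgif2 window was 72.3% G and C with 25 CpG, and Tgif1 start 5 was 37.3% with 2 CpG, against a median of 52.7% and 7 over all windows. No match says only that these letters are not in this window.

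The Tgif1 window was occupied by all 5 factors, and the Tgif2 window by 4, with no Smad3 peak. Merging overlapping peaks gave 5 regions at Tgif1, of which 2 held all 5 factors, 2 held all but Smad3, and 1 held Tgif1, Hdac1 and Nanog. At Tgif2 there were 3 regions, 1 with all factors but Smad3, 1 with Hdac1 alone and 1 with Tgif2 and Hdac1. Over the genome, 2.01% of 33152 merged regions held all 5 factors and 12.8% held 4 or 5. When peaks were joined only by summits within 200 bp, the Tgif1 window split into 11 regions, with 2 of 4 or 5 factors. Of these, 1 held all 5 factors. The Tgif2 window had no region of 4 or 5 factors under this rule. The genome shares above are for merging by overlap, and no share was computed for the summit rule.

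**Figure D1:**
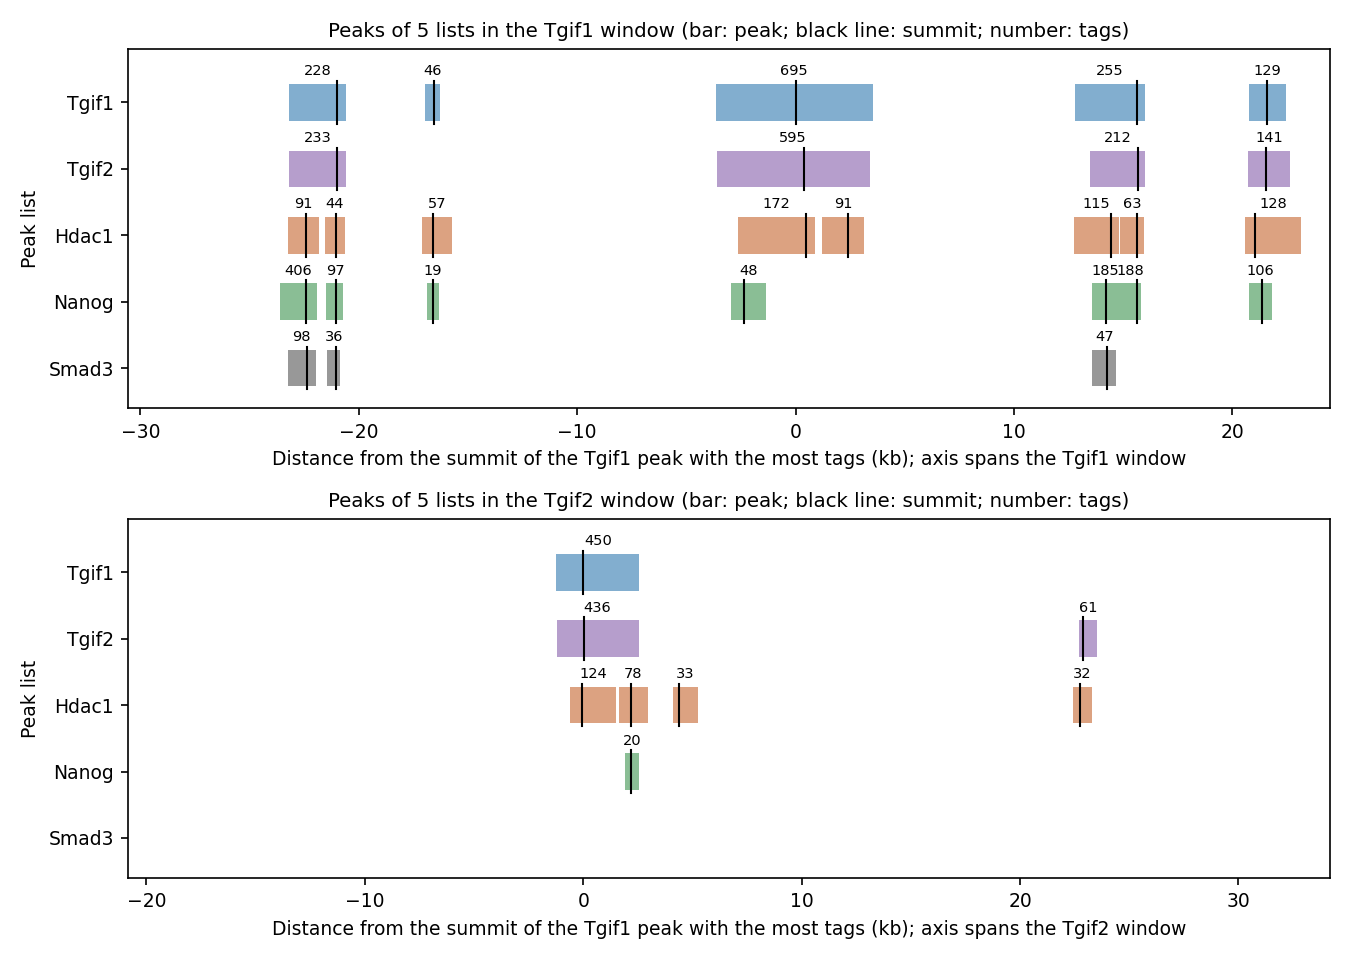
Peaks of the 5 lists in the Tgif1 window (top) and the Tgif2 window (bottom), by distance in kb from the summit of the Tgif1 peak with the most tags. Bars are peaks, black lines summits and numbers tags. The 695-tag Tgif1 peak and the 595-tag Tgif2 peak span the middle of the Tgif1 window, and the 450-tag and 436-tag peaks stand at the Tgif2 locus, where the Smad3 row is empty.

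Tgif1 occupied its own locus in 5 peaks, and the middle one, Tgif1 region 3, was among the broadest and most heavily tagged of its list. This peak, chr17:71196904-71204069, was 7165 bp wide and held 695 tags at 31.6-fold enrichment. Fold enrichment is the authors' ratio of a peak to its background, and tags are their count within the peak, and both are compared only inside a list. It ranked 2 of 16400 Tgif1 peaks by width, 5 by tags and 1180 by fold, so 0.0305% of the list had as many tags and 7.20% as high a fold. Its tags were 12.9 times the list's median of 54. In tags per kb it stood at 97.0, a level that 6.90% of the list reached, so its place by tags went with its width.

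The other 4 Tgif1 peaks at Tgif1 were smaller and lay on both sides. Region 1, on the left edge, had a Tgif1 peak of 228 tags at 21.8-fold (rank 154 by tags). The small peak of region 2 had 46 tags at 8.72-fold, below the medians of the list in both (54 tags and 13.3-fold). Region 4 had 255 tags at 10.4-fold (rank 96), and region 5 had 129 tags at 11.4-fold (rank 1066). Thus 4 of the 5 were at or above the list's median tags and 2 of the 5 at or above its median fold.

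Tgif2 occupied 4 of these 5 regions, with a peak in each that overlapped the Tgif1 peak. The wide pair of region 3 began 25 bp and ended 130 bp apart. In region 3 the Tgif2 peak, chr17:71196929-71203939, was 7010 bp wide, the widest of all 19129 Tgif2 peaks, and ranked 7 by tags with 595 tags. Its fold was only 14.9, close to the list's median of 14.1, and 46.2% of the list reached it. The Tgif2 peaks of regions 1, 4 and 5 had 233, 212 and 141 tags at 25.2-fold, 12.4-fold and 8.66-fold. No Tgif2 peak was listed in region 2, where Tgif1 had its weakest peak. The least tagged Tgif2 peak anywhere in its list held 33 tags. The authors' threshold is not given, and signal that did not pass it would not be listed.

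In the Tgif2 window both paralogs met in 1 strong region, Tgif2 region 1. The Tgif1 peak, chr2:156664579-156668392, was 3813 bp wide with 450 tags at 23.4-fold. It ranked 10 of 16400 by tags, 25 by width and 2675 by fold. The Tgif2 peak at its own locus, chr2:156664604-156668353, was 3749 bp wide with 436 tags at 20.8-fold, and ranked 20 by tags, 26 by width and 4750 by fold. The pair began 25 bp and ended 39 bp apart. Tgif2 had another peak in the window, chr2:156688497-156689346, with 61 tags at 8.78-fold and no Tgif1 partner.

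Set side by side within each list, occupancy of the own locus did not take the highest place for both paralogs. In the Tgif1 list the leading peak at Tgif1 had 12.9 times the median tags and the peak at Tgif2 8.33 times. In the Tgif2 list the leading peak at Tgif1 had 10.4 times the median tags and the one at Tgif2 7.65 times. Both lists thus put more tags on Tgif1 than on Tgif2, and the Tgif1 peaks were also wider in both. By tags per kb the order turned in both lists, with 97.0 at Tgif1 and 118 at Tgif2 in the Tgif1 list, and 84.9 and 116 in the Tgif2 list. By fold, the leading peak of the Tgif1 list was at Tgif1 with 31.6 against 23.4 at Tgif2. For the same region 3 and Tgif2 region 1, the Tgif2 list gave 14.9 at Tgif1 and 20.8 at Tgif2, the opposite order, although its peak of highest fold at Tgif1 was that of region 1 with 25.2. Counting over peaks of 1 library gives no error for these differences.

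Of the 6 Tgif1 peaks of both loci, 5 overlapped a Tgif2 peak, against 79.2% of all Tgif1 peaks, and 5 of the 6 Tgif2 peaks overlapped Tgif1, against 68.0% of all Tgif2 peaks. With so few peaks, neither share can be set apart from its list. The summits of the 5 shared peaks were 13, 367, 34 and 65 bp apart at Tgif1 and 24 bp apart at Tgif2, with a median of 34 bp against 41 bp over 12992 shared peaks. The distance of 367 bp belonged to the 7 kb peak. Of the 10 most tagged peaks of the whole Tgif1 list, 2 were those at Tgif1 and Tgif2. Among the 10 most tagged peaks of the Tgif2 list was 1 peak of these loci, that of region 3, and among those of the Hdac1, Nanog and Smad3 lists there were 0.

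Hdac1, the deacetylase that Tgif proteins recruit, had 8 peaks in the Tgif1 window and 4 in the Tgif2 window. All 6 Tgif1 peaks of both loci overlapped Hdac1, against 66.1% of the Tgif1 list, and 4 of the 6 overlapped at least 2 Hdac1 peaks, against 1.40%. All 6 Tgif2 peaks overlapped Hdac1 as well, against 59.9% of the Tgif2 list, and 4 of the 6 overlapped at least 2, against 1.41%. Wide peaks can hold more partners: among the 165 Tgif1 peaks with at least 224 tags, whose median width was 2560 bp and which include 4 of the 6, 77.0% overlapped Hdac1 and 14.5% overlapped at least 2 Hdac1 peaks. Among the 196 Tgif2 peaks with at least 234 tags, which include 2 of the 6, the shares were 82.7% and 16.8%. These groups were chosen by tags and are not matched on width. The 4 Tgif1 peaks with at least 2 Hdac1 peaks were 2623 to 7165 bp wide, all above 2560 bp. In region 3 the Hdac1 peaks had 172 tags at 8.13-fold and 91 tags at 9.59-fold, with summits 488 and 2411 bp to the right of the Tgif1 summit. At Tgif2 region 1 they had 124 tags at 7.31-fold, 59 bp from the Tgif1 summit, and 78 tags at 13.7-fold, 2174 bp from it.

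At Tgif1 all 8 Hdac1 peaks ranked lower by fold than by tags, whereas at Tgif2 the order was mixed. The folds at Tgif1 ran from 6.61 to 9.59, all 8 below the list's median of 10.7. In contrast, 7 of the 8 were at or above its median of 47 tags. At Tgif2 the folds ran from 7.31 to 13.7 and 1 of 4 reached the median, and 2 of 4 reached the median tags. The peaks of 33 and 32 tags there were below both medians. Seen from the Hdac1 list, 10 of the 12 peaks overlapped Tgif1 and 10 of 12 Tgif2, against 64.6% and 68.4% of all Hdac1 peaks. In each case the 10 fell on only 6 Tgif peaks, so they are not 10 separate sites. Nanog overlapped 8 of 12, against 45.6%, and Smad3 3 of 12, against 5.90%. The 2 Hdac1 peaks without Tgif1 both lay at Tgif2. These were chr2:156669913-156671075 with 33 tags, which no other list overlapped, and chr2:156688238-156689095 with 32 tags, which overlapped the lone Tgif2 peak.

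Nanog marked the Tgif1 locus far more than the Tgif2 locus, with 7 peaks and 1049 tags against 1 peak and 20 tags. The Nanog peaks at Tgif1 held 0.128% of the tags of its list, and the peak at Tgif2 held 0.00243%. Its leading peak, chr17:71176935-71178610 in region 1, had 406 tags at 82.6-fold and ranked 69 of 17272 by tags and 1129 by fold. Region 4 carried a pair of Nanog peaks, of 185 tags at 48.1-fold and 188 tags at 48.7-fold, 6 bp apart. In region 3, where the Tgif peaks were broadest, Nanog was weak, with 48 tags at 9.10-fold, a fold that 93.5% of its list reached. That Nanog summit lay 2382 bp to the left of the Tgif1 summit.

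At Tgif2 the Nanog peak, chr2:156667745-156668397, was weak too, with 20 tags at 15.95-fold, where the least tagged Nanog peak of the list held 16. Its summit lay 4 bp from the Hdac1 summit of 78 tags and 2178 bp from the Tgif1 summit. All 8 Nanog peaks of both loci overlapped Tgif1, against 35.8% of the Nanog list, and all 8 overlapped Hdac1, against 45.9%. Tgif2 overlapped 7 of the 8, against 36.7%. The 8 Nanog peaks fell on only 6 Tgif1 peaks, 2 of which held a pair, so they are not 8 separate sites. All 6 Tgif1 peaks overlapped Nanog, against 36.7% of the Tgif1 list and 61.8% of its 165 most tagged peaks, and 2 of the 6 overlapped at least 2 Nanog peaks, against 1.59% and 21.2%. Of the 6 Tgif2 peaks, 5 overlapped Nanog, against 32.2% of the Tgif2 list and 52.6% of its 196 most tagged peaks, and 2 overlapped at least 2 Nanog peaks, against 1.48% and 17.3%.

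Smad3, the signal carrier that Tgif proteins oppose, was found at Tgif1 in 3 peaks and at Tgif2 in none. The strongest, chr17:71177281-71178579 in region 1, had 98 tags at 16.3-fold and ranked 41 of 1226 by tags and 91 by fold. Beside it, chr17:71179106-71179693 had 36 tags at 15.3-fold, and chr17:71214122-71215234 in region 4 had 47 tags at 8.05-fold. The 3 peaks were 0.245% of the Smad3 list and held 0.419% of its tags. All 3 overlapped each of the other factors, against 67.5% of the list for Tgif1, 63.7% for Tgif2, 81.1% for Hdac1 and 90.3% for Nanog. The 2 Smad3 peaks of region 1 fell on the same Tgif1 peak and the same Tgif2 peak, so the 3 are not separate Tgif sites. With 3 peaks, none of these overlaps can be set apart from the share of the list. From the other side, Smad3 overlapped 2 of the 6 Tgif1 peaks, against 5.04% of the Tgif1 list, 2 of the 6 Tgif2 peaks, against 4.08%, and 3 of the 8 Nanog peaks, against 6.43%. Among the most tagged peaks Smad3 overlap was more frequent, at 25.5% of the 165 Tgif1 peaks and 14.3% of the 196 Tgif2 peaks. The nearest Smad3 peak outside the Tgif2 window was 544133 bp away, and the shortness of this list leaves most places without a peak.

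Regions 1 and 4 of Tgif1 each held a pair of sub-sites, and the Tgif summits stood at the right-hand one in both. In region 1 Nanog, Hdac1 and Smad3 each had a left peak with 406, 91 and 98 tags and a right peak with 97, 44 and 36 tags. The single Tgif1 summit lay 36, 8 and 42 bp from the right-hand summits of Nanog, Hdac1 and Smad3, and 1393, 1417 and 1362 bp from the left-hand ones. The Tgif2 summit lay 13 bp beyond that of Tgif1. All 3 partners thus had more tags in the left peak, which was also the wider one in each list. By fold Nanog and Smad3 kept this order, with 82.6 and 16.3 on the left and 43.5 and 15.3 on the right, whereas Hdac1 turned, with 6.61 on the left and 7.25 on the right.

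In region 4 the same offset appeared, less clearly by tags. The Tgif1 summit lay 8 bp from the right-hand Nanog summit and 4 bp from the right-hand Hdac1 summit, and 1417 and 1191 bp from their left-hand summits. Hdac1 had 63 tags on the right and 115 on the left, Nanog 188 on the right and 185 on the left, and Smad3 only a left-hand peak, 1374 bp from the Tgif1 summit. In the Tgif1 list, 175 peaks held a pair of Nanog summits of unequal tags, and in 33.1% the Nanog peak nearer to the Tgif1 summit had fewer tags. Region 1 belongs to that minority and region 4 does not. For Hdac1 the share was 32.7% of 113 peaks, to which regions 1 and 4 belong by tags. Region 3 and Tgif2 region 1 do not, with 172 and 124 tags in the nearer Hdac1 peak against 91 and 78 in the farther. By fold the share was 39.1% of 110 peaks. Regions 1 and 4 do not belong there, since region 4 had an Hdac1 fold of 8.12 on the right and 7.57 on the left. Region 3 and Tgif2 region 1 do belong by fold, with 8.13 and 7.31 in the nearer peak against 9.59 and 13.7. Per kb, the Hdac1 tags of region 4 were 57.8 on the right and 56.4 on the left, so the order of the Hdac1 sub-sites depended on the measure.

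**Figure D2:**
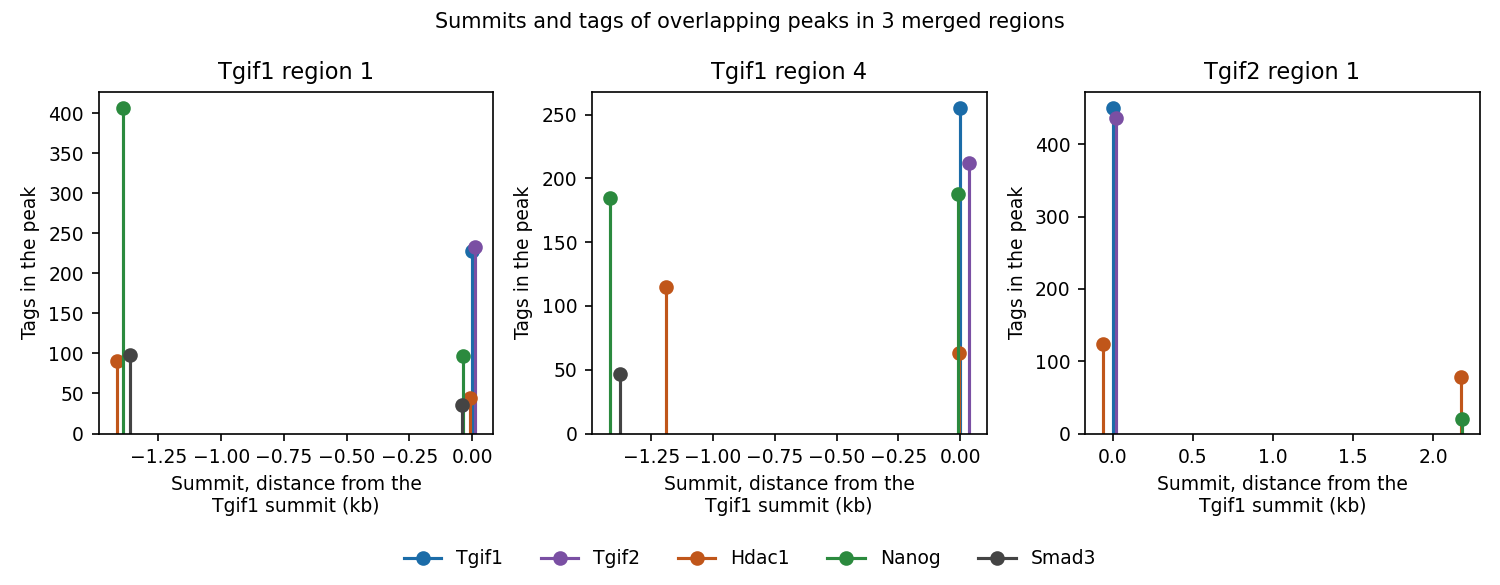
Tags in each peak (vertical axis) against the distance of its summit from the Tgif1 summit in kb (horizontal axis), for Tgif1 regions 1 and 4 and Tgif2 region 1, with a stem per peak coloured by list. At Tgif1 regions 1 and 4 a group of summits lies 1191 to 1417 bp left of the Tgif1 summit, led by the 406-tag Nanog peak in region 1. At Tgif2 region 1 the 20-tag Nanog peak and an Hdac1 peak lie 2178 and 2174 bp to the right.

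Smad3 summits lay nearer to Nanog summits than to Tgif summits at these sites. The 3 Smad3 summits lay 31, 6 and 43 bp from the nearest Nanog summit, whereas 2 of the 3 lay 1362 and 1374 bp from the Tgif1 summit of the peak they overlapped. Over the whole Smad3 list the medians were 35 bp to Nanog and 49 bp to Tgif1. A median of 3 distances has no useful error, and a merged Tgif peak can report only 1 summit. The median distance from Tgif1 to Hdac1 over 6 peaks was 433 bp by peak midpoints and 45 bp by summits, and that to Nanog was 554.5 bp and 141 bp.

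The rank of these peaks depended on the measure. By fold, the strongest peak of each list at Tgif1 was matched or exceeded by 7.20% of Tgif1, 16.7% of Tgif2, 60.4% of Hdac1, 6.54% of Nanog and 7.42% of Smad3 peaks. By tags the shares for the most tagged peak were 0.0305%, 0.0366%, 0.709%, 0.399% and 3.43%. At Tgif2 the shares by fold were 16.4% for Tgif1, 24.9% for Tgif2, 30.1% for Hdac1 and 70.3% for Nanog, and by tags 0.0610%, 0.105%, 2.60% and 79.8%. Nanog at Tgif2 was the exception that ranked lower by tags than by fold. The strongest peak was not always the same by both measures. For Tgif2 and Hdac1 at Tgif1, and for Hdac1 at Tgif2, the most tagged peak was another one. By fold those most tagged peaks were matched or exceeded by 46.2%, 75.3% and 84.6% of their lists.

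**Figure D3:**
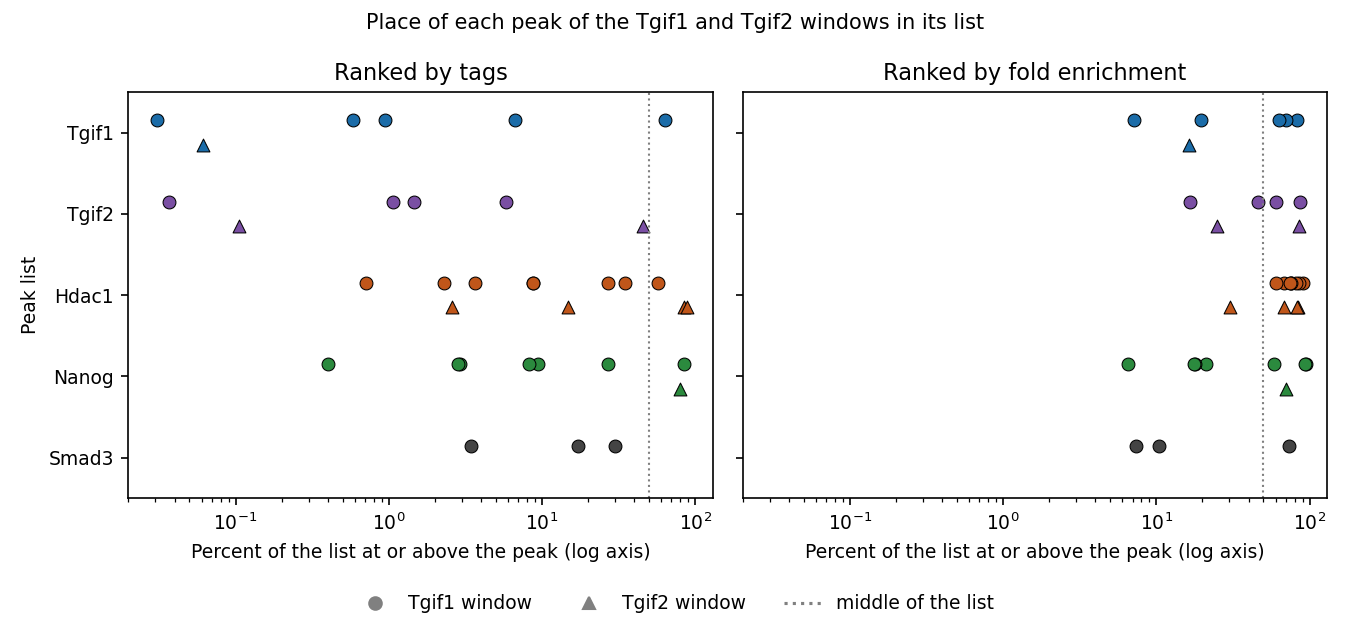
Percent of each list at or above every peak of the Tgif1 window (circles) and the Tgif2 window (triangles), ranked by tags (left) and by fold enrichment (right), on a log axis. The most tagged Tgif1 and Tgif2 peaks of each window lie between 0.0305% and 0.105% by tags and between 7.20% and 46.2% by fold.

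The Tgif1 window was crowded in every list, with 27 peaks in all, a number that 0.159% of windows reached, and the Tgif2 window had 8, which 5.42% reached. Of 49118 adjacent 55 kb windows over the genome, 0.875% had at least 5 Tgif1 peaks, 2.14% at least 4 Tgif2 peaks, 0.0651% at least 8 Hdac1, 0.228% at least 7 Nanog and 0.0489% at least 3 Smad3 peaks. All 5 numbers were reached together in 2 windows, or 0.00407%, 1 of them the Tgif1 window itself and the other chr13:44770000-44825000. With the edges shifted by 27500 bp, 5 windows reached all of them and the Tgif1 locus, divided by an edge, was not among them, so this count depends on where edges fall. At Tgif2 the counts were common for Tgif1 (at least 1 in 19.5% of windows), Nanog (at least 1 in 21.2%) and Tgif2 (at least 2 in 9.11%), and less so for Hdac1 (at least 4 in 1.60%). A window without Smad3 is the usual case, since 2.20% of windows had a Smad3 peak. At least 1 peak was present in 21.8% of windows for Tgif2 and 19.9% for Hdac1, and all 5 lists were present together, as at Tgif1, in 1.58%. The windows covered every sequence named in the lists, random contigs included, and were not matched on gene content. Shares among windows that hold genes were not computed.

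**Figure D4:**
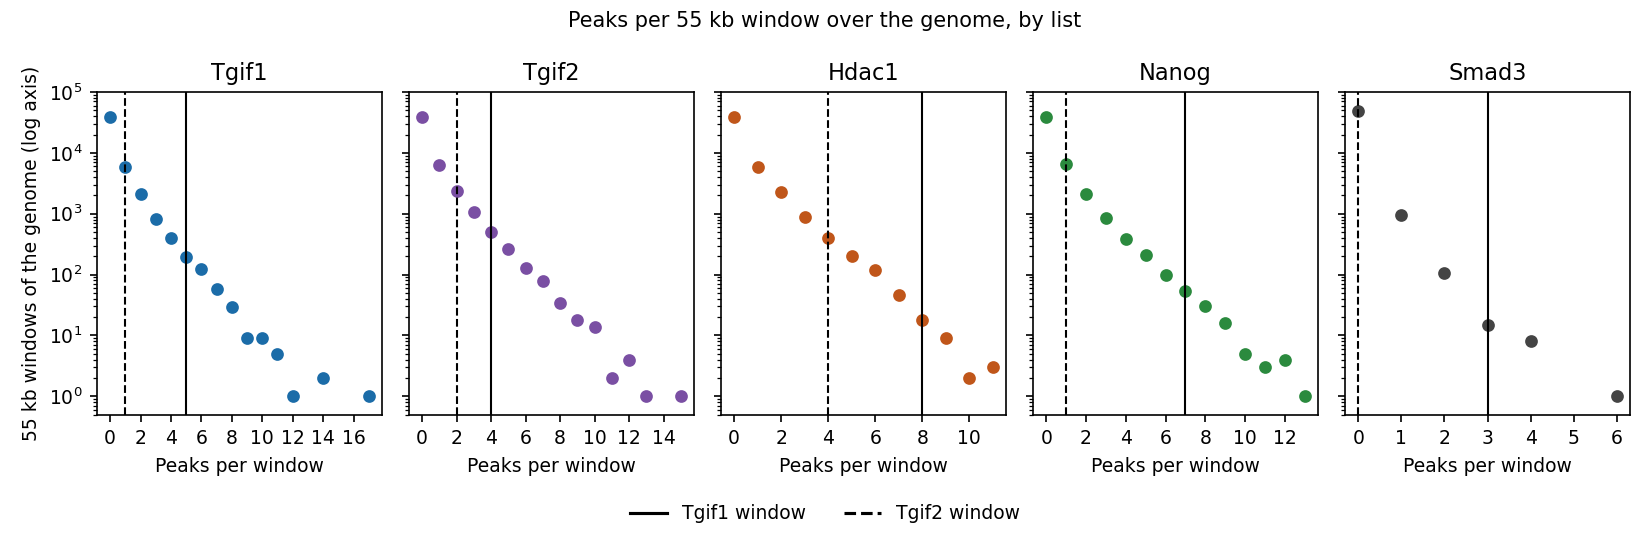
Number of 55 kb windows of the genome (log axis) with each number of peaks, per list. Solid lines mark the Tgif1 window, with 5, 4, 8, 7 and 3 peaks from left to right, and dashed lines the Tgif2 window, with 1, 2, 4, 1 and 0.

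Around the windows the loci differed as well. Within 50 kb to the left of the Tgif1 window lay 4 Tgif1, 4 Tgif2, 2 Hdac1 and 5 Nanog peaks, and within 50 kb to the right 2, 2, 4 and 4. These include chr17:71155695-71156552, a Tgif1 peak of 151 tags at 69.1-fold, rank 91 by fold and so higher by that measure than any Tgif1 peak inside the window. Tgif2, Hdac1 and Nanog had peaks at the same place, of 57.7-fold, 21.8-fold and 30.4-fold, with summits within 7 bp of the Tgif1 summit. Around the Tgif2 window the same distance held 1 Hdac1 peak and no peak of the other 4 lists, and the nearest Tgif1 peaks were 88181 and 116533 bp away.

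Peaks were assigned to the loci by position and not to a gene. In RefSeq on GRCm38.p6, the Tgif1 gene spans 9328 bp, with the noncoding genes Gm36856 and Gm41610 beside it, and the nearest protein-coding neighbours are Dlgap1 at 22791 bp and Myl12b at 120430 bp. Tgif2 spans 15754 bp and overlaps the noncoding 5430405H02Rik and the protein-coding model LOC115486128. Rab5if begins 7551 bp and Sla2 18580 bp from it. Both the Tgif1 and the Tgif2 window may therefore hold parts of other genes. Which exon, intron or promoter each peak covers is not given, since no mm9 gene models were used.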

How the data were processed

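Peak lists of 5 factors, 1 library each, were used, and the BirA mock library was not analysed here. Per the submitters' processing notes the tools were BWA 0.5.9-r16 and MACS on mm9. Settings, thresholds, the control of each list and library depth are not given in the sources used here. The lists have no header, so columns were read from the values. The deposited fold enrichment is a ratio of each peak to its background, and the deposited tag number is a raw count per peak, not scaled to depth. Coordinates are printed as deposited, with an uncertainty of 1 bp.

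Peaks overlapping either window by at least 1 bp were taken, ranked within their list and merged where they overlapped. Percent at or above counts ties. Genome-wide windows were adjacent, from position 0 to the last peak of each chromosome. No test was made. The members and lists were chosen with earlier results of these data known, and region 3 and the paired sub-sites were singled out after their values were seen. All peaks of both windows and the neighbouring genes were named by rule. Overlap code was tested on simulated data and checked against bedtools 2.31.1, where 0 of 20 list pairs differed. Python 3.11.15, NumPy 2.4.6, pandas 2.3.3, SciPy 1.17.1 and matplotlib 3.10.9 were used.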

Additional observations from a re-analysis of the deposited data

How the results depend on the processing

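No paired analysis was possible because each factor had 1 library. Of the alternative values, 53 stayed within their limit and 32 moved. At Tgif1, narrowing the window by 10 kb on each side left 3 Tgif1, 2 Tgif2, 4 Hdac1, 3 Nanog and 1 Smad3 peaks. With a fold no lower than the median of its list there were 2 peaks for Tgif1, 2 for Tgif2, 0 for Hdac1 and 4 for Nanog at Tgif1, and 1 for Tgif2, 1 for Hdac1 and 0 for Nanog at Tgif2. Widening the windows by 10 kb or requiring the summit inside moved no count by over 1.5 times.

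Ranked by tags, the strongest peak at Tgif1 was matched by 0.0305% of Tgif1, 0.0366% of Tgif2, 0.709% of Hdac1, 0.399% of Nanog and 3.43% of Smad3 peaks, and at Tgif2 by 0.0610% of Tgif1, 0.105% of Tgif2, 2.60% of Hdac1 and 79.8% of Nanog peaks. The strongest peak was taken anew for each measure. By tags per kb the share was 11.5% for Tgif2, 8.68% for Hdac1 and 1.24% for Nanog at Tgif1. At Tgif2 it was 2.72% for Tgif1, 3.50% for Tgif2, 14.6% for Hdac1 and 90.0% for Nanog. Summits within 200 bp gave 11 regions at Tgif1, 2 of them with 4 or 5 factors, and 0 such regions at Tgif2. No genome share was computed for this rule. By midpoints the median distance from Tgif1 to Hdac1 was 433 bp, and that to Nanog was 554.5 bp against 141 bp by summits, a move smaller than the spread among its 6 distances. The split of paired Nanog peaks by fold in place of tags, chosen after seeing the data, gave 39.9%, and that of paired Hdac1 peaks 39.1%. With 1 library per factor and unknown depth, a missing peak means only that none passed the authors' threshold, and the causes of these changes were not tested.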
